A study of Mus musculus with 12 samples.

Results

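The immediate early AP-1 and EGR genes comprise Fos, Fosb, Fosl2, Jun, Junb, Jund, Atf3, Egr1, Egr2 and Ier2. They were chosen by symbol, with earlier results of these data known. They are 10 of the 24454 genes for which values were deposited, and all 10 were among the 11476 genes tested. They were measured in acute myeloid leukemia (AML) blasts from mice. Fetal liver cells of wildtype (WT) or STAT3β-deficient (Δβ) donors, which lack the β splice isoform of STAT3, had been transformed with a retrovirus that carried the MLL-AF9 fusion oncogene and a Venus fluorescence reporter, and transplanted into male immunocompromised NSG mice, a strain without mature T, B and NK cells. When the recipients were diseased, Venus+ blasts were sorted from spleen (SP) and bone marrow (BM), and poly-A RNA was sequenced. The 4 groups, WT SP, Δβ SP, WT BM and Δβ BM, held 3 libraries each, and all of them share the retroviral oncogene and the NSG host. The sources used here do not say whether replicates are separate animals or how many transformed cell lines were used, so p-values measure the spread between these libraries. In bulk RNA, fewer cells with a transcript and less transcript per cell cannot be told apart.

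AP-1 is a dimer of basic leucine zipper proteins, in which JUN proteins pair with each other or with FOS and ATF proteins, and EGR proteins are zinc finger factors that bind GC-rich sites. The genes of both families are immediate early genes, whose transcripts appear within minutes of a growth factor, cytokine or stress signal without new protein synthesis, and mostly decay fast. Signals reach them through MAP kinases, which act on SRF with its ternary complex factors at CArG boxes and on CREB and ATF proteins at cyclic AMP response elements (CRE). In the myeloid lineage, AP-1 and EGR factors take part in monocyte and macrophage differentiation. JUNB and JUND can restrain proliferation that JUN promotes, and STAT3 is among the factors that bind FOS and JUNB regulatory sequence after cytokine signals.

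The promoters below are shown because the results turn on these genes, and because the capitals mark where they carry the letters of known sites. These are the sites that the kinase pathways above act on and those that AP-1 and EGR proteins bind. They are the 150 bases before the start site, 5′ to 3′ on the gene's strand, from RefSeq on GRCm38.p6. The RefSeq promoter table used here matched 8 of the 10 genes, and Egr1 and Ier2 were not searched. Capitals mark matches on either strand to the CArG box, to TGACGTCA (the full CRE), to TGANTCA (the AP-1 site), to GCGNGGGCG (the EGR site) and to TGACG (the CRE core, which also lies within the full CRE and was added to the search after the promoters had been seen). Of the 5 RefSeq windows of Egr2, the one shown starts its transcript downstream of the gene start in GENCODE, and the window of Atf3 likewise belongs to a start inside the GENCODE gene. The window of Jund, searched but not shown, ends at 70697738, upstream of the GENCODE gene start at 70698949.
Fos (chr12:85473740-85473889, plus strand): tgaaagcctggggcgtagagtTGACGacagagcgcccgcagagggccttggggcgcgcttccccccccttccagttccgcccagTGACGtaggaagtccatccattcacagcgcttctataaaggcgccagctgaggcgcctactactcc
Fosb (chr7:19310046-19310195, minus strand): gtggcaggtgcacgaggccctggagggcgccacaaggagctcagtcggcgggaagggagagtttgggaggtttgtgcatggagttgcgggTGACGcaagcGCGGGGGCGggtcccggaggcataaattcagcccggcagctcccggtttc
Jun (chr4:95052223-95052372, minus strand): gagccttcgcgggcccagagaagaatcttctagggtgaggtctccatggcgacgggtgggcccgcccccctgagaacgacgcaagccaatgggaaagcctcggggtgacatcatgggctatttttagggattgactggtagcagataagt
Junb (chr8:84978749-84978898, minus strand): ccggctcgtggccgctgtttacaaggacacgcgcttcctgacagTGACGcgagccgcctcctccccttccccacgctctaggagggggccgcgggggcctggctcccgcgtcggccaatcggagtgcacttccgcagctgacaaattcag
Atf3 (chr1:191183334-191183483, minus strand): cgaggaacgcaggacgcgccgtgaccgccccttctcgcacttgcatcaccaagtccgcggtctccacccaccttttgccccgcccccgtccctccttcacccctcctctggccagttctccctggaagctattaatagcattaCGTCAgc
Egr2 (chr10:67537719-67537868, plus strand): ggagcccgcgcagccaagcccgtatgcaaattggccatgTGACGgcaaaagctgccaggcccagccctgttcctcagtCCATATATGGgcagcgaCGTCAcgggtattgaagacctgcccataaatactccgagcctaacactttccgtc

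In the searched 250 bases before the start site, the CRE core lay in 5 of the 8 genes (Fos, Fosb, Junb, Atf3 and Egr2), against 19.8% of all 27018 genes with RefSeq promoters of the same length. A gene counts here if any of its windows holds the letters, and Egr2 had 5 windows, while all 27018 genes had 32841. The CRE core was added after the promoters had been seen, so its share is a description and not evidence of an excess. In Atf3 it ended 3 bases before the start site, in Fosb it spanned positions -60 to -56, and Fos held it at -129 to -125 and at -66 to -62. Within these 250 bases the CArG box was found in Egr2 alone, at -72 to -63 in the promoter shown, against 1.62% of all genes. Sequence further upstream was not searched, nor were Egr1 and Ier2, so this does not say that Fos or the other genes lack one. The EGR site lay in 2 of the 8 genes, Fosb (-50 to -42) and Fosl2 (-79 to -71), against 5.33%. The full CRE and the AP-1 site had 0 matches among the 8 genes, against 1.77% and 7.82% of all genes. No capitals stand in the Jun promoter, which says only that these letters were not in this window.

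Libraries held 9001051 to 13859727 reads on genes, and 1 read was worth 0.775 to 1.17 normalized counts, the deposited unit, in which reads of a gene are scaled by the size factor of the library. The WT SP libraries differed among themselves in correlation and in marker genes. Across tested genes on the log2 scale, WT SP replicate 3 had a Pearson's r of 0.897 with replicate 1 and 0.943 with replicate 2, against 0.964 between these. Apart from these pairs, r within a group was 0.929 (Δβ BM replicates 1 and 3) to 0.968. WT SP replicate 3 had 40587 normalized counts for the granule enzyme gene Mpo against 5947 and 5256 in replicates 1 and 2. For Itgam (CD11b) it had 10941 against 26293 and 21981, and for Ptprc 6066 against 20833 and 14695. Other blast markers set replicate 1 apart instead. Hoxa9 was 798 there against 2060 and 2671 in replicates 2 and 3, and Meis1 516 against 1423 and 1152. In Δβ SP the ranges were 25775 to 53210 for Mpo and 7855 to 10473 for Itgam. All 8 blast markers (Ptprc, Itgam, Csf3r, Kit, Mpo, Hoxa9, Meis1 and Cebpa) had at least 3 reads in all 12 libraries. The hemoglobin genes Hba-a1, Hbb-bs and Hbb-bt, Pf4 and Ppbp of platelets, Ncr1 of NK cells and Kdr of endothelium had fewer than 3 reads in every library. The 8 resident macrophage markers summed to 2740 to 4823 normalized counts in SP of WT and 2966 to 4613 in SP of Δβ, so the SP groups overlapped, and in BM to 5163 to 8223 for WT and 3755 to 4824 for Δβ. Among them C1qa reached at most 14.8 normalized counts. The 5 T cell markers in the table summed to at most 17.3 and 12.1 in SP and BM of WT, and to at most 112 and 328 in SP and BM of Δβ. Between WT and Δβ in SP, the 5 B cell markers summed to 284 to 403 and 402 to 466, which met. The 8 endothelial and stromal markers summed to 1162 to 1227 and 1584 to 2550, which did not overlap. Most of that sum was Pecam1, at 1184, 1046 and 1051 in WT SP and 2517, 1548 and 1404 in Δβ SP. Pdgfrb overlapped between these groups, and Cdh5, Kdr, Col1a1, Col1a2, Col3a1 and Cxcl12 reached at most 7.98 in SP. The ribosomal RNA precursor Rn45s, a sign of RNA or library quality in poly-A libraries, took 0.725%, 2.48% and 2.41% of the reads in the WT SP libraries and 0.178% to 0.655% in the other 9, so it was highest in the group on which the SP and WT organ comparisons turn. The part of these differences in the results was not tested.

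The question was whether immediate early transcripts differed between WT and STAT3β-deficient blasts, and whether they did so alike in SP and BM. In SP, 9 of the 10 genes had at least 2.07-fold lower levels in Δβ than in WT blasts in limma's fit, and Fosl2 differed by 0.34 on the log2 scale. In BM no gene stood apart in this way, and Egr1 had the largest difference, in the other direction. The members' levels were high in WT SP, the group with the most Rn45s, and varied widely between replicates in Δβ SP and WT BM. After adjustment over all genes, none of the 10 passed in limma in any comparison with all 12 libraries. DESeq2 called 3 of them lower in SP, beside 2.46% of all genes. Without WT SP replicate 3, limma called 5 lower in SP, beside 11.7% of all genes.

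**Figure D1:**
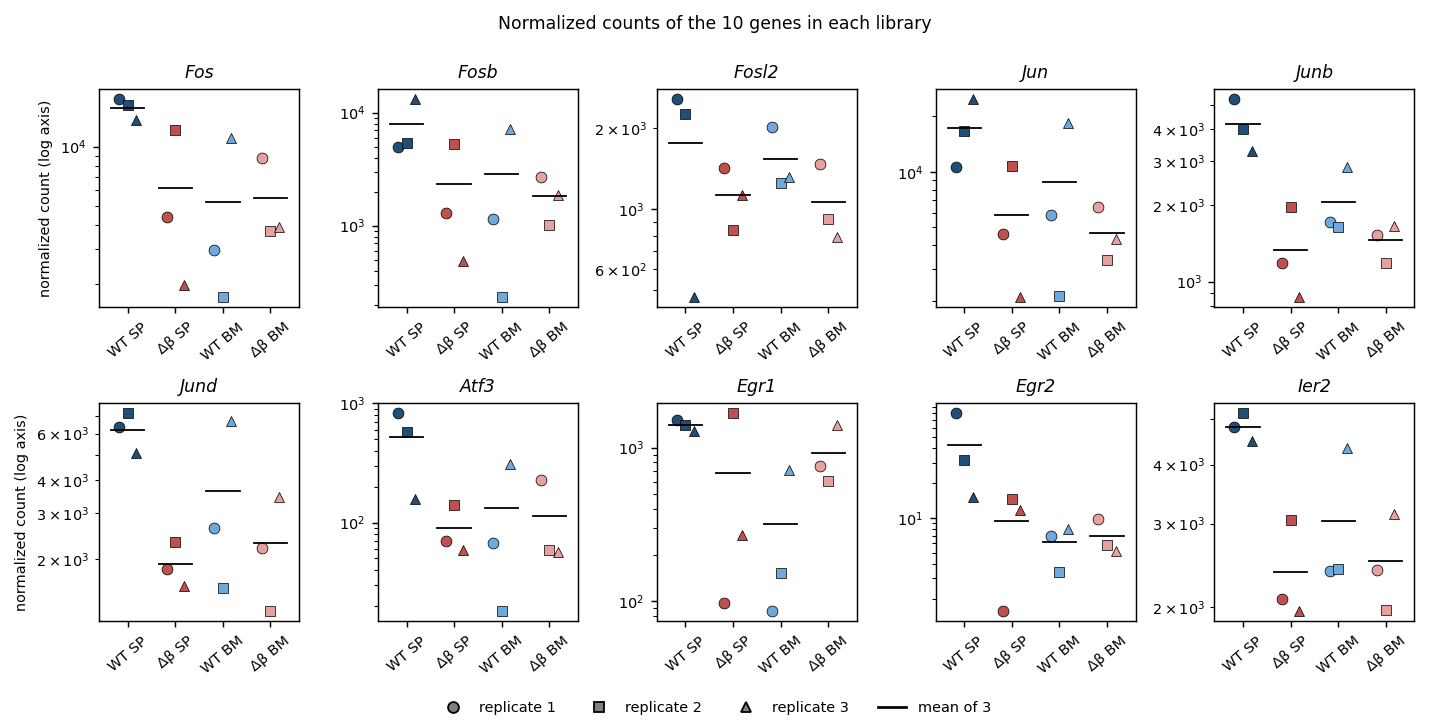
Normalized counts (log axis, each panel with its own range) of the 10 genes by genotype and organ; points are single libraries, with circles, squares and triangles for replicates 1, 2 and 3, and the bar is the mean of 3. For 6 genes every WT SP point is above every Δβ SP point, namely Fos, Junb, Jund, Atf3, Egr2 and Ier2, while Δβ SP replicate 2 and WT BM replicate 3 were the highest of their group in 9 of the 10 panels.

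Of the FOS family, Fos (RefSeq NM_010234, chromosome 12 from 85473890 to 85477273 on GRCm38), the partner of JUN in the classical AP-1 dimer, had 17443, 16226 and 13632 normalized counts in replicates 1, 2 and 3 of WT SP. In the same order, which all genes below follow, Δβ SP held 4363, 12079 and 1988. WT BM held 2972, 1710 and 11054, and Δβ BM 8751, 3715 and 3896. WT SP was tight and above every other library, whereas Δβ SP replicate 2 and WT BM replicate 3 stood close to it and far from their own group. WT SP averaged 15767 ± 1947 (SD, n = 3), and Δβ SP 6143 ± 5276 (SD, n = 3). In SP, Δβ differed from WT by -1.73 on the log2 scale (SE 0.72, limma with Benjamini-Hochberg adjusted p = 0.309), or 3.33-fold lower on the scale of the normalized count plus 1, and it did not pass. Without Δβ SP replicate 2 it was -2.41, and without Δβ SP replicate 3 -1.11.

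Fosb (NM_008036, chromosome 7 from 19302696 to 19310051), which makes a full-length activator and the short, stable ΔFOSB by splicing, had 5002, 5381 and 13182 normalized counts in WT SP and 1300, 5237 and 488 in Δβ SP. It had 1154, 231 and 7199 in WT BM and 2677, 1012 and 1846 in Δβ BM. The SP groups overlapped through Δβ SP replicate 2, and the highest and lowest of the 12 libraries differed 57.1-fold, the widest range of the 10 genes. The fold change in SP was -2.25 on the log2 scale (SE 1.12, adjusted p = 0.368 from limma), with an unadjusted 95% interval from -4.71 to 0.22. It was -3.15 without Δβ SP replicate 2 and -1.44 without Δβ SP replicate 3.

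Fosl2 (NM_008037, chromosome 5 from 32135801 to 32157842), which encodes FRA2, a FOS relative that lacks a strong activation domain, had 2572, 2270 and 471 normalized counts in WT SP and 1423, 838 and 1134 in Δβ SP. In BM it had 2031, 1257 and 1321 in WT and 1478, 924 and 787 in Δβ. Its lowest library was WT SP replicate 3, the reverse of Fosb and Jun, for which that library was the highest. With this library the log2 fold change in SP was -0.34 (SE 0.54, adjusted p = 0.763 from limma), and without it -1.13 (SE 0.30, adjusted p = 0.0334 from limma), so this library decides whether Fosl2 is called.

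Of the JUN family, Jun (NM_010591, chromosome 4 from 95049034 to 95052222) had 10625, 16657 and 24722 normalized counts in WT SP and 4622, 10748 and 2092 in Δβ SP. In WT BM it had 5835, 2127 and 18408, and in Δβ BM 6429, 3320 and 4337. The SP groups met at WT SP replicate 1 and Δβ SP replicate 2, whose values are close, and WT BM replicate 3 was above 2 of the 3 WT SP libraries. In SP the log2 fold change was -1.80 (SE 0.74, adjusted p = 0.308 from limma), and -2.39 without Δβ SP replicate 2.

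Junb (NM_008416, chromosome 8 from 84974484 to 84978718), which can oppose JUN at shared targets and restrains myeloid expansion in mice, had 5267, 3993 and 3291 normalized counts in WT SP and 1186, 1964 and 865 in Δβ SP. It had 1712, 1644 and 2835 in WT BM and 1532, 1180 and 1661 in Δβ BM. No Δβ SP library reached a WT SP library, and all BM libraries lay below WT SP. Junb had the smallest p of the 10 genes in SP, at rank 27 of all genes tested, with a log2 fold change of -1.70 (SE 0.31, adjusted p = 0.0796 from limma), or 3.25-fold lower. It passed with DESeq2 (adjusted p = 0.000232) and without WT SP replicate 3 (log2 fold change -1.86, adjusted p = 0.0121 from limma), but not with all libraries in limma or edgeR.

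Jund (NM_010592, chromosome 8 from 70698949 to 70700616), the JUN member that many cells express without a stimulus, had 6347, 7197 and 5090 normalized counts in WT SP and 1839, 2325 and 1585 in Δβ SP. In WT BM it had 2640, 1555 and 6683, and in Δβ BM 2205, 1272 and 3448. The SP groups were each tight and did not overlap, with a log2 fold change of -1.70 (SE 0.47, adjusted p = 0.218 from limma), a size near those of Junb and Jun. With DESeq2 the adjusted p was 0.0186, and it was 0.0437 from limma without WT SP replicate 3.

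Atf3 (NM_007498, chromosome 1 from 191170296 to 191218039), a stress-induced member that represses many inflammatory genes, had 832, 569 and 157 normalized counts in WT SP and 70.5, 141 and 58.7 in Δβ SP. WT BM held 67.5, 18.02 and 309 and Δβ BM 228, 58.4 and 57.0. The SP groups did not overlap, but WT SP replicate 3 was close to Δβ SP replicate 2 and WT BM replicate 3 was above it. Its log2 fold change in SP was -2.32 (SE 0.96, adjusted p = 0.309 from limma), and -3.02 (adjusted p = 0.0613 from limma) without WT SP replicate 3.

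Of the EGR genes, Egr1 (NM_007913, chromosome 18 from 34859823 to 34864984), which favors monocytic over granulocytic differentiation, had 1508, 1409 and 1280 normalized counts in WT SP, the second tightest of the 10 genes there after Ier2. In Δβ SP it had 96.1, 1685 and 269, so that the group held both the lowest SP library and the highest of all 12. It had 85.3, 151 and 714 in WT BM and 757, 600.4 and 1406 in Δβ BM. The order of the genotypes was thus opposite in the 2 organs. On the log2 scale the difference was -1.98 in SP (SE 0.95, adjusted p = 0.355 from limma) and 2.03 in BM (SE 0.95, adjusted p = 1.0 from limma), and both pairs of groups overlapped. The value in SP hung on single libraries, at -1.05 without Δβ SP replicate 1 and -3.11 without Δβ SP replicate 2, and was -0.996 in edgeR and -0.997 in DESeq2.

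Egr2 (NM_010118, chromosome 10 from 67535475 to 67542188), a factor of macrophages and of tolerant T cells, was the lowest of the 10. WT SP held 80.9, 31.8 and 15.2 normalized counts, and Δβ SP 1.55, 14.6 and 11.7. WT BM held 6.95, 3.38 and 8.06, and Δβ BM 9.78, 5.84 and 5.18. The 1.55 of Δβ SP replicate 1 stood for 2 reads, under the floor of 3 reads taken as expression, and WT SP replicate 3 and Δβ SP replicate 2 differed by 2 reads. The log2 fold change in SP of -2.14 (SE 0.77, adjusted p = 0.271 from limma) rested most on these extremes, and was -1.53 without WT SP replicate 1 and -1.32 without Δβ SP replicate 1.

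Ier2 (NM_010499, chromosome 8 from 84661331 to 84662852), a short nuclear protein of the immediate early response that belongs to neither family, had 4804, 5148 and 4496 normalized counts in WT SP and 2077, 3059 and 1957 in Δβ SP. In WT BM it had 2379, 2405 and 4338, and in Δβ BM 2389, 1973 and 3140. WT SP was above every other library. Its difference in SP was -1.05 on the log2 scale (SE 0.26, adjusted p = 0.185 from limma), or 2.07-fold lower, and with DESeq2 the adjusted p was 0.0197. Ier2 had the narrowest range of the 10, with 2.63-fold between the highest and lowest of the 12 libraries. It lies 311.6 kb from Junb on the same chromosome.

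All 10 log2 fold changes of Δβ against WT in SP were negative, with a median of -1.77, beside a median of -0.01 and 51.9% negative over all genes tested. With limma, 0 of the 10 had an adjusted p under 0.05, as did 12 of 11476 genes (0.105%). At an unadjusted p under 0.05, 7 of the 10 were lower (Fos, Jun, Junb, Jund, Atf3, Egr2 and Ier2) and 0 higher, beside 8.96% of all genes lower. In 6 of the 10 the WT libraries were all above the Δβ libraries, beside 9.37% of all genes. The 10 genes varied together between libraries, so counts of members here and below are not counts of separate observations. The members were also chosen with earlier results of these data known. Leaving out 1 SP library at a time moved the 7 to between 3 (without Δβ SP replicate 1) and 9 (without Δβ SP replicate 2), and it was 4 without WT SP replicate 1, WT SP replicate 2 or Δβ SP replicate 3. Over all genes, the count in either direction went from 1708 to 1421 without Δβ SP replicate 1 and 938 without Δβ SP replicate 2. It was 1011, 1022 and 1267 without WT SP replicate 1, WT SP replicate 2 and Δβ SP replicate 3. Without WT SP replicate 3, Fosl2, Junb, Jund, Egr2 and Ier2 passed the adjusted threshold and were lower, beside 11.7% of all genes lower at that threshold. DESeq2 on the recovered reads called Junb, Jund and Ier2 lower, beside 2.46% of all genes, and edgeR's quasi-likelihood test called 0 of the 10.

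**Figure D2:**
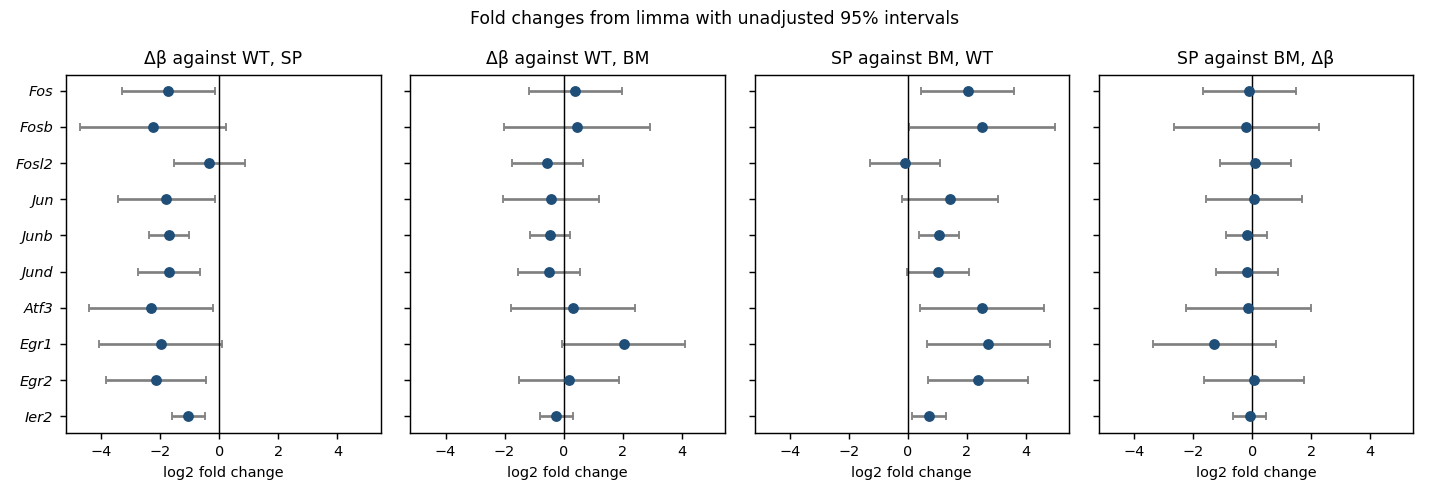
Log2 fold changes (x axis) of the 10 genes from limma in 4 comparisons, with unadjusted 95% intervals as bars and a line at 0. In SP the 10 points lie between -2.32 and -0.34, and in WT 9 of 10 are higher in SP than in BM, while the points for BM and for Δβ scatter around 0 apart from Egr1.

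In BM, 5 of the 10 log2 fold changes of Δβ against WT were positive and 5 negative, with a median of -0.04 beside -0.02 over all genes. They ran from -0.55 for Fosl2 to 0.46 for Fosb and stood at 2.03 for Egr1. With limma, 0 of the 10 passed, as did 0.0697% of all genes (8 genes), and at an unadjusted p under 0.05 it was 0 of the 10 beside 2.59% of all genes. WT and Δβ libraries overlapped for all 10 genes, and 7.63% of all genes did not overlap. The unadjusted 95% intervals were wide. That of Fos ran from -1.19 to 1.97 and that of Jun from -2.07 to 1.20, so a difference of the size seen in SP was not within the interval for Fos but was for Jun. For Junb it ran from -1.15 to 0.21, and for Ier2 from -0.82 to 0.32.

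Within WT, 9 of the 10 genes were higher in SP than in BM, with a median log2 fold change of 1.73 beside 0.00 over all genes. Egr1 was 6.62-fold higher (log2 2.73), Atf3 5.71-fold, Fosb 5.69-fold, Egr2 5.17-fold and Fos 4.09-fold, and the JUN genes and Ier2 between 1.65-fold (Ier2) and 2.67-fold (Jun). Fosl2 had a log2 fold change of -0.10. Single libraries moved several of these values by more than 1.5-fold. Without WT BM replicate 2, the log2 value fell to 1.30 for Fosb, 1.53 for Atf3 and 0.66 for Jun, and without WT BM replicate 3 it stood at 3.77, 3.55 and 2.21, with 3.61 for Egr1 and 2.80 for Fos. That of Egr1 was 2.08 without WT BM replicate 1, that of Egr2 1.76 without WT SP replicate 1, and those of Atf3 and Fosl2 3.22 and 0.69 without WT SP replicate 3. In edgeR, Fosb was at 1.45 and Egr1 at 2.13. No gene of the 11476 (0%) passed after adjustment, and the 10 had adjusted p of 0.580 to 0.964 from limma. At an unadjusted p under 0.05, 7 of the 10 were higher (Fos, Fosb, Junb, Atf3, Egr1, Egr2 and Ier2), beside 4.36% of all genes. The groups did not overlap for Fos, Junb, Egr1, Egr2 and Ier2, beside 5.66% of all genes that were higher in this way. The 7 became 9 without WT BM replicate 3 and 2 without WT BM replicate 1. Over all genes, the count in either direction went from 949 to 1044 and 492 in these settings. Without WT SP replicate 3 the 7 stayed 7, but the count over all genes rose to 2957. In that setting 0 of the 10 passed after adjustment, beside 5.21% of all genes.

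Within Δβ, SP and BM differed little next to their spread. The log2 fold changes of SP against BM lay between -0.20 (Fosb) and 0.11 (Fosl2), except for Egr1 at -1.29 (SE 0.95). With limma, 0 of the 10 and 0% of all genes passed after adjustment, and at an unadjusted p under 0.05 it was 0 of the 10 beside 1.77% of all genes. All 10 genes overlapped between the organs, and 7.42% of all genes did not. The intervals were again wide, from -1.67 to 1.49 for Fos and from -0.65 to 0.48 for Ier2.

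The genotype difference in SP minus that in BM was negative for 9 of the 10 genes, with a median of -1.74 beside 0.00 over all genes. It was -4.01 for Egr1 (SE 1.34), -2.70 for Fosb (SE 1.58), -2.12 for Fos (SE 1.01) and -1.23 for Junb (SE 0.44), and 0.21 for Fosl2 (SE 0.77). After adjustment 0 of the 10 and 0% of all genes passed (adjusted p of 0.926 to 0.972 from limma). At an unadjusted p under 0.05, Junb, Egr1 and Ier2 were lower, beside 1.95% of all genes. WT SP enters this value, the genotype comparison in SP and the organ comparison in WT, so these 3 results are not separate evidence.

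**Figure D3:**
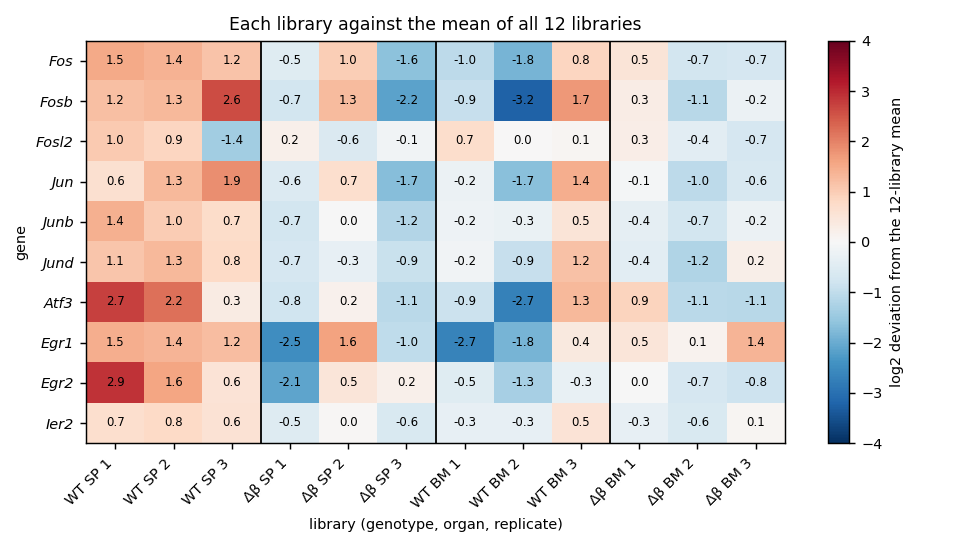
Log2 deviation of each library (columns) from the mean of all 12 libraries for each of the 10 genes (rows); red is above and blue below that mean. WT SP is above it throughout except for Fosl2 in replicate 3, and within the other groups the genes move together by library, with Δβ SP replicate 2 and WT BM replicate 3 mostly red.

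The replicates of a group differed in the whole set of genes at once. Δβ SP replicate 2 was the highest of its group for 9 of the 10 genes and WT BM replicate 3 for 9, with Fosl2 as the exception in both. WT BM replicate 2 was the lowest of its group for 8 genes, Δβ SP replicate 3 for 7 and Δβ BM replicate 2 for 7. In WT SP, replicate 3 was the lowest for 8 genes and the highest for Fosb and Jun. The within-group SD on the log2 scale, pooled over groups, was 1.60 for Fosb, 1.36 for Atf3 and 1.35 for Egr1, beside a median of 0.27 over all genes tested, which put these genes at the 98.5th, 97.5th and 97.4th percentiles. That of Ier2 was 0.35, at the 64.7th percentile, and that of Junb 0.43. In WT SP alone Ier2 and Egr1 were at the 10.7th and 14.6th percentiles, with SDs of 0.10 and 0.12, and in Δβ SP Egr1 was at the 99.5th.

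Pearson's r between 2 of the 10 genes over the 12 libraries, which share depth and library, had a median of 0.75 over the 45 pairs, and 0.64 after the 4 group means were taken out. With group means out, Fosb and Jun had an r of 0.99, Jund and Ier2 0.90, Fos and Fosb 0.90 and Fos and Jun 0.90. Egr2 was looser, with a median r of 0.36 with the other 9. Fosl2 had a median of 0.05, with 0.49 for Atf3 and 0.39 for Egr2 as its highest. These values describe the libraries and carry no test.

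**Figure D4:**
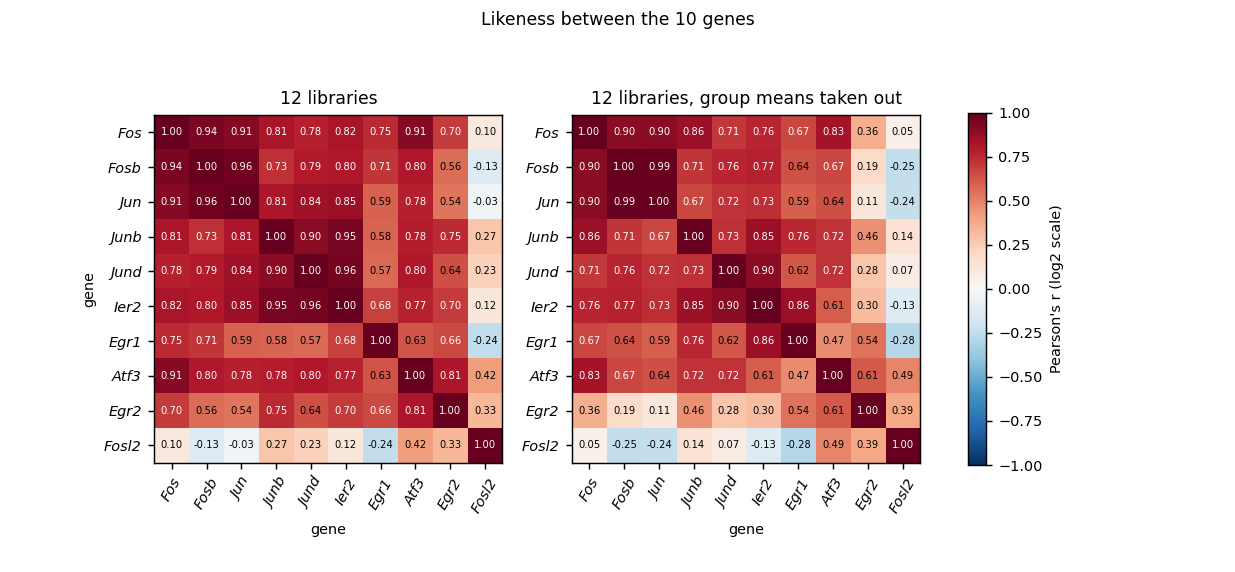
Pearson's r on the log2 scale between the 10 genes over 12 libraries (left) and after taking out the 4 group means (right), with the color scale from -1 to 1. Fos, Fosb and Jun are at 0.90 or above with each other in both panels. Fosl2 has values of both signs, from -0.24 to 0.42 on the left and from -0.28 to 0.49 on the right.

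Outside the 10, genes whose pattern over the 12 libraries was most like that of Fos included Ppp1r15a (r = 0.96), Sugt1 (0.94), Ten1 (0.93) and Zfp36 (0.91). Ppp1r15a, which encodes the stress-induced phosphatase subunit GADD34, had 1406, 1103 and 1458 normalized counts in WT SP and 453, 886 and 228 in Δβ SP. Zfp36, which encodes the mRNA decay factor tristetraprolin, had 12466, 11638 and 8779 in WT SP and 2988, 5098 and 2240 in Δβ SP. Both shared the high Δβ SP replicate 2. As they were picked by their r with Fos over these libraries, this is not separate evidence. Among all other genes tested, Fosb ranked 2, Atf3 8 and Jun 9 by their r with Fos, and Fosl2 ranked 4915.

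Per kilobase of merged exons, the scale on which levels of different genes can be set side by side, the mean over the 12 libraries was 3466 normalized counts per kb for Fos, 2872 for Jun, 2108 for Jund, 2090 for Ier2, 983 for Junb, 597 for Fosb, 185 for Egr1, 142 for Fosl2, 99.3 for Atf3 and 4.78 for Egr2. Group means turned this order in places, for example with Jun (2756) above Fos (2230) and Fosl2 (159) above Egr1 (70.6) in WT BM, Atf3 (241) above Fosl2 (183) in WT SP, and Ier2 (1553) above Jund (1149) in Δβ SP. Neighbours in this order overlapped in all 4 groups for Fos and Jun, Jun and Jund, and Jund and Ier2, the last with SDs of 225 and 397 per kb in Δβ SP (n = 3). Ier2 and Junb, and Atf3 and Egr2, did not overlap in any of the 4 groups. The neighbours from Junb down to Atf3 overlapped in 3 of the 4 groups, and the exceptions were Fosb above Egr1 and Egr1 above Fosl2 in WT SP, Junb above Fosb in Δβ BM and Fosl2 above Atf3 in Δβ SP. By the same levels per kb, Fos made up 72.9% to 87.4% of the FOS family in the 12 libraries, and its lowest share was in WT SP replicate 3, where Fosb made up 26.5%. Within the JUN family, Jun made up 63.4% in that library and 28.8% to 59.99% in the others. In Δβ SP, the share of Jund was 35.9%, 24.8% and 47.9%. Egr1 made up at least 90.3% of Egr1 and Egr2 in every library. These shares depend on the lengths used. By the length of the deposited transcript, Fosb averaged 985 per kb and Fos 3867, against 597 and 3466 by merged exons.

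The rest of the pathway was read from lists with earlier results of these data known. Of 33 other immediate early genes tested, 32 had a negative log2 fold change of Δβ against WT in SP, with a median of -1.41 beside -0.01 over all genes, and 22 were lower at an unadjusted p under 0.05, beside 8.96% of all genes, but 0 passed after adjustment in limma. The 4 with the smallest p were Ier5, Rhob, Plk2 and Sgk1. Ier5 had 2988, 2371 and 1202 normalized counts in WT SP and 536, 717 and 445 in Δβ SP (adjusted p = 0.0959 from limma). Rhob, a small GTPase gene, had 6674, 9650 and 8679 and 3116, 4668 and 2885. Plk2, a stress-responsive kinase gene, had 225, 113 and 105 and 16.3, 41.4 and 17.1, and the kinase gene Sgk1 1499, 925 and 509 and 213, 162 and 172. None of these 4 overlapped between the SP groups, beside 9.37% of all genes that were lower in this way. They were picked by their p in this same comparison, so this is not separate evidence. In BM, 17 of the 33 were positive and 16 negative, with a median of 0.04.

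Of 11 other AP-1 partners tested, 8 were negative in SP, with a median of -0.22, and 2 were lower at an unadjusted p under 0.05, beside 51.9% negative and 8.96% lower over all genes. Among these, Jdp2, a repressor that pairs with JUN, had 897, 929 and 755 normalized counts in WT SP and 498, 455 and 484 in Δβ SP (adjusted p = 0.205 from limma). Next by p were Batf2, with a positive log2 fold change (2.76, adjusted p = 0.354 from limma), and Maff (-0.51). Of Egr3 and the EGR corepressor genes Nab1 and Nab2, all 3 were negative in SP, and Nab1 alone had an unadjusted p under 0.05 (log2 fold change -0.56, adjusted p = 0.216 from limma). Egr3 had 114, 21.2 and 3.04 normalized counts in WT SP and at most 12.8 in Δβ SP.

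Of 26 kinases and factors upstream of these genes, 21 were negative in SP, with a median of -0.26, and 7 were lower at an unadjusted p under 0.05, beside the same 51.9% and 8.96% of all genes, with 0 after adjustment in limma. Those with the smallest p included the p38 kinase gene Mapk14 (log2 fold change -0.37), its target kinase gene Mapkapk2 (-0.42) and Map2k4 (-0.38). Their differences were smaller than those of the immediate early genes named above. Of 15 tested genes with textbook AP-1 or EGR sites, 14 were negative in SP, with a median of -0.87, 5 were lower at an unadjusted p under 0.05 (8.96% of all genes), and 1, the cytokine gene Tnf, passed (log2 fold change -2.28, adjusted p = 0.0353 from limma). Tnf had 699.7, 705 and 463 normalized counts in WT SP and 106, 173 and 106 in Δβ SP. In BM, where it had 373, 576 and 635 in WT and 409, 224 and 292 in Δβ, it did not pass.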

How the data were processed

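The authors sequenced poly-A RNA of Venus+ blasts in 3 libraries for each genotype and organ, which the labels give. The deposited values are a signal per gene, a gene count that the authors divided by 1 size factor per library. FastQC, STAR, featureCounts and DESeq2 and the builds GRCm38 and mm10 are named in the submitters' processing notes. Versions and the strand setting are not given in the sources used here, so reads of overlapping antisense transcripts cannot be told apart. The table holds 6 further columns of no labelled sample, which were not used. Its header line is 1 cell short because 2 names, one of them of such a column, run together, and the names after them were read as shifted by 1.

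In each library 100% of the values were whole multiples of 1 read (tolerance 0.01), and reads were recovered by that step. Reads carry no molecular identifiers, so the floor of 3 reads covers counting error only. Normalized counts, with a pseudocount of 1 added, were put on the log2 scale and fitted with limma 3.58.1 (trend) in R 4.3.3 over the 11476 genes whose mean reached 10, with 1 mean for each of the 4 groups and a shared spread. Benjamini-Hochberg adjustment ran over all genes tested in each of 5 contrasts, at a threshold of 0.05. A fold change on this scale understates that of low genes. An exact permutation test of 3 libraries against 3 cannot go below a two-sided p of 0.1 and was not used. The procedure was tested on simulated data.

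The members and lists were chosen with earlier results of these data known. Named genes are the 10 members, the 5 other genes most correlated with Fos, and for each list the genes called in a contrast or, with none, the 4 with the smallest p in SP. Some genes that this rule names are not reported here. The replicate numbers in the labels were checked by the correlation of deviations from the group means. Between Δβ SP and Δβ BM it was 0.608 to 0.664 for the same number and -0.485 to -0.177 for other numbers, and between WT SP and WT BM it was -0.237 to -0.009 for the same number. Over all tested genes, same-numbered Δβ libraries thus deviated together. The negative values for other numbers follow in part from this, because deviations from a group mean cancel out. The main fit took no libraries as pairs, so its SE and p between the Δβ organs leave this out. A block of genotype and number was run as an alternative. The members did not follow the same-numbered deviation in replicate 2, which was the highest of Δβ SP for 9 of them and the lowest of Δβ BM for 7.

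As alternatives, the pseudocount was 0.25 or 4, the filter was dropped or set at a mean of 50, and the others were TMM and quantile rescaling, no trend, edgeR 4.0.16 and DESeq2 1.42.0 on recovered reads, a replicate block, the 6 libraries compared alone, and each library left out. Gene positions and exon lengths are those of GENCODE M21 on GRCm38, and promoters those of RefSeq.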

Additional observations from a re-analysis of the deposited data

How the results depend on the processing

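With all 12 libraries, 0 of the 10 genes were called in each of the 5 comparisons under every limma and edgeR setting, and DESeq2 called 3 of them in SP. In SP all tested members stayed lower in Δβ under every setting that kept the 12 libraries. When 1 library was left out, 7 of the 10 members could change sign in BM and 9 between the Δβ organs, while Fosl2, Junb and Egr1 in BM and Egr1 between the Δβ organs did not, and depth limited Egr2 alone, at 2 to 71 reads. The cause of the changes below was not tested.

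The count of all genes called in SP, 12, was 1 with a pseudocount of 0.25, 5 without a filter, 2 with a minimum mean of 50, 3 with TMM, 3 without the trend, 4 with edgeR, 434 with DESeq2, and 2 with the 6 libraries alone. In BM the 8 became 5 without the trend, 37 with DESeq2 and 3 with the 6 libraries alone. DESeq2 called 108 genes between the WT organs, 2 between the Δβ organs and 3 for the difference between organs, where limma called 0. At an unadjusted p under 0.05, limma had 1708, 297, 949, 203 and 367 genes in the 5 comparisons.

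With a replicate block of 3 numbers, 2 genes were called in SP and 5 in BM, and no member. With a block of genotype and number, 0 genes were called in the organ comparisons, and the replicate block changed no other call.

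Leaving out 1 library gave 1 to 1884 genes in SP and 0 to 5 members, where the upper ends are those without WT SP replicate 3. It gave 1 to 13 genes in BM and 0 to 598 between the WT organs, the 598 also without WT SP replicate 3. 

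Members that changed sign in edgeR and DESeq2 were Fosb (-0.63 and -0.64) and Atf3 (-0.20 and -0.21) in BM, Fosl2 between the WT organs (0.18 and 0.19), Fos (0.19 and 0.21) and Fosb (0.36 and 0.38) between the Δβ organs, and Fosl2 in the difference (-0.079 and -0.084). Egr2 between the Δβ organs was -0.018 with a pseudocount of 0.25 and -0.13 with quantile rescaling. Leaving out 1 library gave -1.13 to 0.10 for Fosl2 in SP. In BM it gave -0.19 to 1.16 for Fos, -0.75 to 1.72 for Fosb, -1.20 to 0.36 for Jun, -0.98 to 0.073 for Jund, -0.66 to 1.36 for Atf3, -0.14 to 0.38 for Egr2 and -0.43 to 0.037 for Ier2. Between the WT organs Fosl2 ran from -0.54 to 0.69, and in the difference from -0.58 to 0.65. Between the Δβ organs the ranges were -0.77 to 0.53 for Fos, -1.10 to 0.61 for Fosb, -0.080 to 0.37 for Fosl2, -0.54 to 0.64 for Jun, -0.51 to 0.081 for Junb, -0.54 to 0.18 for Jund, -0.50 to 0.53 for Atf3, -0.43 to 0.87 for Egr2 and -0.28 to 0.094 for Ier2.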
